A study of Mus musculus with 6 samples.

Results

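The genes described here are 34 components of the PI3K, AKT and mTOR pathway, chosen by name from a list of kinase subunits, adaptors, phosphatases and mTOR complex genes and found by Ensembl gene ID among the 48440 genes of the count table. They were compared in mouse ovarian surface epithelial cells, the layer that covers the ovary, between 3 libraries of cells given an adenovirus with GFP alone (Ad-GFP, labelled WT) and 3 libraries of cells given an adenovirus with Cre recombinase and GFP (Ad-Cre-GFP, labelled as the Lats1/2 knockout). RNA was taken 7 days after the virus. The groups are called control and knockout below. Which alleles Cre acts on, the strain and age of the mice, and whether libraries stem from separate cultures is not given in the sources used here. P-values therefore measure only the spread between these libraries, which may be technical, and loss of LATS, exposure to Cre and any difference between cultures cannot be told apart. The title of the series names AKT activity. Transcript counts measure RNA and not the phosphorylation that sets this activity.

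Class I PI3K is a lipid kinase of a catalytic and a regulatory subunit that is recruited to activated receptors, often through the adaptors IRS and GAB, and makes the membrane lipid PIP3. PIP3 brings AKT to PDK1, and lipid phosphatases remove the signal. AKT restrains the TSC complex and so frees RHEB to activate mTORC1, the raptor form of mTOR that drives protein synthesis, while the rictor form, mTORC2, phosphorylates AKT and SGK kinases.

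Library totals ran from 18690235 to 30304033 counts, and each knockout library was deeper than each control library. As a check of the labels, Lats1 fell from 159 ± 8.74 (SD, n = 3) in the controls to 37.1 ± 1.36 in the knockouts and Lats2 from 129.5 ± 2.16 to 98.7 ± 1.97, in CPM, that is, counts scaled to library size. The labels do not name the deleted exons, so these gene totals check the labels only in part. Epithelial and mesothelial markers of the ovarian surface summed to 4120 to 4157 CPM in the controls and 3804 to 3837 CPM in the knockouts, with 5 rises and 5 falls among 11 tested of 12, and Aldh1a2 at 0 counts. Of 9 immune cell markers only Cd14 and Cd68 were tested, of which Cd14 fell. Adgre1, a macrophage marker, was at 0, and the list summed to 10.99 to 13.2 CPM against 6.69 to 7.30 CPM. Stromal fibroblast markers (Dcn, Col3a1, Dpt, Pdgfra, Col1a1 and Lum) summed to 2675 to 2842 CPM and 984 to 1045 CPM, with falls in 5 of 5 tested and Lum at 0. Of 7 endothelial markers both tested members rose (3.02 to 3.13 CPM and 10.2 to 11.6 CPM in sum), with Tie1 and Emcn at 0. Of 6 granulosa markers 2 rose and 1 fell among 3 tested, with sums of 3.23 to 3.78 CPM and 3.18 to 4.31 CPM and Fshr and Cyp19a1 at 0. The part of these markers in the changes below was not tested, and in bulk RNA fewer cells of a type and less RNA per cell cannot be told apart.

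Of the 34 genes, 33 passed the filter on low counts and Inpp5d did not. In the knockout 11 rose, 15 fell and 7 were not called at an adjusted p under 0.05. Called genes were thus 78.8% of the tested components, where 69.8% of all 14811 tested genes were called (34% higher and 35.8% lower). A called change of at least 1.5-fold (a log2 change of 0.58) was found for 4 rises and 8 falls, 36.4% of the tested components against 29% of all tested genes (13.8% higher and 15.2% lower). The groups did not overlap for 28 of the 33, or 84.8%, against 73% of all tested genes. The median log2 change of the 33 was -0.09 and that of all tested genes -0.01, and the median size of change was 0.34 and 0.35. Together the 34 genes took 2357 to 2450 CPM in the controls and 2307 to 2328 CPM in the knockouts, before TMM scaling. With TMM scaling the sums overlapped, at 2339 to 2427 CPM in the controls and 2336 to 2360 CPM in the knockouts. The median size of change thus lay close to that of all tested genes. The control library with the lowest total, Ad-GFP replicate 3, was the highest of the controls for 23 of the 33 genes. The same count was not made over all tested genes. Without this library 12 of the components rose and 15 fell, and 11 were called with at least 1.5-fold.

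**Figure D1:**
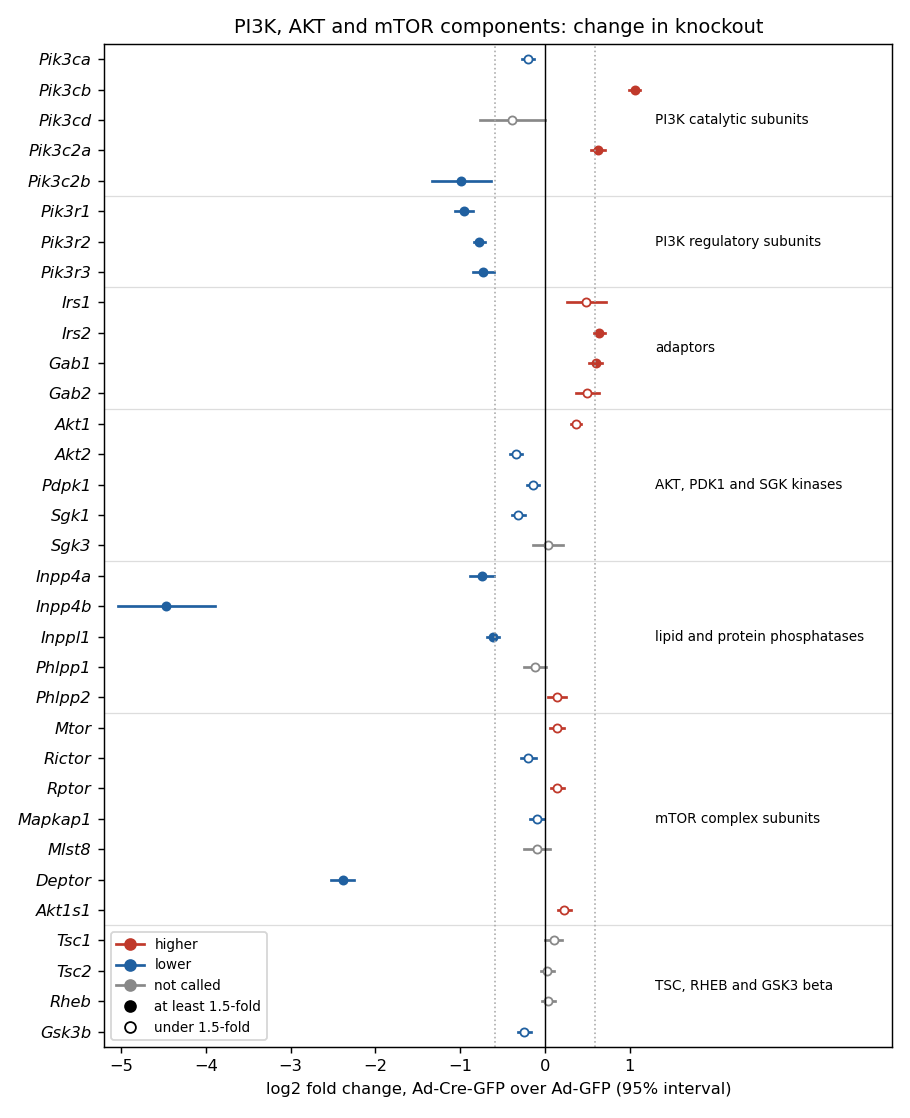
Log2 fold change of the 33 tested components, knockout (Ad-Cre-GFP) over control (Ad-GFP, 3 libraries each), with its 95% interval from the edgeR fit; colours give the call, filled points called changes of at least 1.5-fold, and dotted lines that size. All 3 regulatory subunits lie to the left of 0, all 4 adaptors to the right, and Inpp4b (-4.47) and Deptor (-2.39) lie farthest from 0.

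The catalytic subunits of PI3K went apart. Pik3cb, which encodes the beta catalytic subunit that G protein-coupled receptors can also engage (chromosome 9, 99036654 to 99140621, minus strand), was at 99.9, 96.5 and 94.0 CPM in the controls and 199, 206 and 199 CPM in the knockouts. Each knockout library was above each control library, and the level rose 2.08-fold (log2 change 1.06 ± 0.03, SE, adjusted p = 2.22e-17). Pik3ca, which encodes the alpha catalytic subunit used by receptor tyrosine kinases (chromosome 3, 32397671 to 32468486, plus strand), was at 78.7, 78.8 and 83.4 CPM and then at 69.9, 70.3 and 69.5 CPM. This was a small fall without overlap (log2 change -0.20 ± 0.04, adjusted p = 4.37e-05). Pik3cd, whose delta subunit is best known from leukocytes, had only 43 to 76 counts in each control and 47 to 69 in each knockout library, and its groups overlapped (log2 change -0.38 ± 0.18, adjusted p = 0.0661). Its call depended on single libraries, with adjusted p from 0.0334 without Ad-GFP replicate 3 to 0.453 without Ad-GFP replicate 1; it was also called without Ad-GFP replicate 2 or Ad-Cre-GFP replicate 2. Ptprc, the common leukocyte marker, had 3 counts over all controls and 8 over all knockouts.

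Levels of different subunits can be compared only per length, here as CPM per kilobase of annotated exons. On that scale Pik3cb was already the highest catalytic subunit in the controls, at 13.5 ± 0.411 (SD, n = 3) against 8.84 ± 0.292 for Pik3ca and 0.433 ± 0.105 for Pik3cd. Its share of the sum was 60.1%, 59.7% and 57.8% in the controls and 77.5%, 77.95% and 77.7% in the knockouts. The share of Pik3ca was 37.5%, 38.6% and 40.6% in the controls and 21.5%, 21.0% and 21.5% in the knockouts. No library of either group reached the other for these shares, and the exact two-sided permutation p was 0.1 for each, the smallest that 3 libraries against 3 allow.

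The class II catalytic genes, whose kinases act on membrane traffic rather than through the regulatory subunits of class I, also differed in direction. Pik3c2a (chromosome 7, 116337265 to 116443449, minus strand) was at 47.5, 45.3 and 49.9 CPM in the controls and 73.0, 74.7 and 72.2 CPM in the knockouts. The groups were clearly apart, a 1.54-fold rise (log2 change 0.63 ± 0.04, adjusted p = 9.29e-12). An antisense gene, Gm44777, overlaps 12.3% of its exon length, with few counts of its own, 45 over the controls and 76 over the knockouts. Pik3c2b (chromosome 1, 133045667 to 133108687, plus strand) was scarce, at 2.73, 4.07 and 3.76 CPM and then 1.85, 1.71 and 1.79 CPM. It fell 1.98-fold (log2 change -0.99 ± 0.17, adjusted p = 1.97e-05), on 49 to 104 counts per library.

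All 3 class IA regulatory subunits fell. These proteins stabilise the catalytic subunit, hold it inactive in the resting state and dock it to phosphotyrosines. Pik3r1, which encodes the p85 alpha subunit and its shorter forms (chromosome 13, 101680563 to 101768217, minus strand), was at 105, 97.3 and 112 CPM in the controls and 51.3, 54.9 and 55.6 CPM in the knockouts. Knockout levels were 51.4% of control (log2 change -0.96 ± 0.05, adjusted p = 5.27e-12). Pik3r2, for p85 beta (chromosome 8, 70768176 to 70776713, minus strand), was at 150, 152 and 152 CPM and then 87.3, 90.1 and 87.4 CPM, the tightest of the 3 genes. Its level in the knockouts was 58.3% of control (log2 change -0.78 ± 0.03, adjusted p = 1.96e-15). Pik3r3, for the p55 gamma subunit (chromosome 4, 116221618 to 116303056, plus strand), was at 40.2, 36.2 and 43.1 CPM and then 23.5, 23.4 and 25.2 CPM, or 60.2% of control (log2 change -0.73 ± 0.06, adjusted p = 9.40e-10). Another annotated gene on the same strand, Gm49337, shares 24.3% of the exon length of Pik3r3 and is not among the genes of the count table.

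The mix of regulatory subunits differed little between the groups. Per kilobase, Pik3r2 made up 65.4% to 68.8% of the sum in the controls and 67.1% to 68.7% in the knockouts, and these ranges overlap (exact permutation p = 0.4). Pik3r3 overlapped as well, at 12.9% to 14.6% and 14.0% to 15.2% (exact permutation p = 0.5). Pik3r1 went from 18.3% to 19.99% in the controls to 16.7% to 17.7% in the knockouts, without overlap (exact permutation p = 0.1). The sums of the catalytic and of the regulatory genes went in opposite directions. Per kilobase, the catalytic sum was 22.7 ± 0.330 in the controls and 36.02 ± 0.629 in the knockouts, and the regulatory sum 54.2 ± 1.48 and 31.0 ± 0.520 (SD, n = 3). Their ratio was 0.428, 0.426 and 0.406 in the controls and 1.18, 1.17 and 1.14 in the knockouts, a 2.77-fold difference (exact two-sided permutation p = 0.1, the smallest possible). The ratio was formed after these genes had been seen to move, so its p adds no support. It is a ratio of RNA, not of protein. Its level depends on the length used. The control mean was 0.420 per exon length, 0.349 by longest transcript and 0.608 without division by length.

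**Figure D2:**
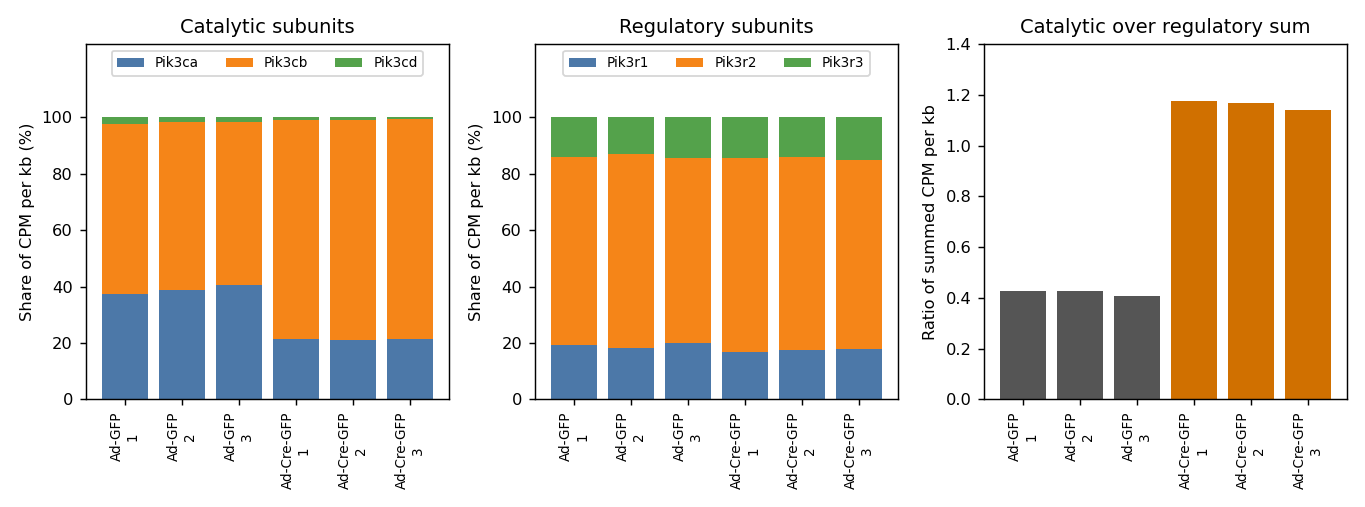
Stacked bars give, for each library, the share (%) of each class IA catalytic and regulatory gene in the sum of its kind, in CPM per kilobase of exon, and single bars the ratio of the summed catalytic to the summed regulatory level. Pik3cb takes 57.8% to 60.1% of the catalytic sum in the 3 controls and 77.5% to 77.95% in the 3 knockouts, and the ratio goes from at most 0.428 to at least 1.14.

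Promoter sequences are shown for some class IA genes, those of the regulatory genes being the windows with a match, because the LATS kinases restrain YAP and TAZ, which act through the TEAD factors. They are the 250 bases before a RefSeq start, 5′ to 3′ on the gene's strand (RefSeq, GRCm38.p6). Capitals mark the TEAD core GGAATG or its reverse, CATTCC.
Pik3r2, chr8:70776713-70776962, minus strand: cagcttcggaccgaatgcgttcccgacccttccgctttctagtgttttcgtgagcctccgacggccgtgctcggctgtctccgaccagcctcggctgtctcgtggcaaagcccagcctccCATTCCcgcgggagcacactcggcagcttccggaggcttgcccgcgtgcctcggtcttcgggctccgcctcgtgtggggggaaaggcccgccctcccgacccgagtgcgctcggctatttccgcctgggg
Pik3r1, start inside the gene, chr13:101692631-101692880, minus strand: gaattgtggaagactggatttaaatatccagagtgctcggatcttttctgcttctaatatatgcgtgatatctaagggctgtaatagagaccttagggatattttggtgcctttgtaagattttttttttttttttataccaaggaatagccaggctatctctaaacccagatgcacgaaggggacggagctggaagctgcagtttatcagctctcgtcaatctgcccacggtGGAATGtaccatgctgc
Pik3cb, chr9:99140212-99140461, minus strand: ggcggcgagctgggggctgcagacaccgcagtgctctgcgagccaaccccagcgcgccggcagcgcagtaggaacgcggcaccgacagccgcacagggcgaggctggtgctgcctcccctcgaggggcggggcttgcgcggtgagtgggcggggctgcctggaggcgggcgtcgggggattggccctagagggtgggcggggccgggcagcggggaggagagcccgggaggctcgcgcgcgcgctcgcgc
The match begins 130 bases before the start of Pik3r2 and 17 bases before this start of Pik3r1, the Pik3cb window holds none, and neither does the window of the outer start of Pik3r1. The 3 windows of Pik3r3, which also fell, and the window of Pik3ca have no match either.

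RefSeq promoter windows, from 250 bases before to 50 bases after a start, matched 31 of the 34 genes by symbol, with 51 windows in all. GGAATG on either strand was in 10 of the 51 windows (19.6%), against 14.7% of 32851 such windows over all genes. Of the genes with a window, 9 hold it. They are 2 of 10 rises (Irs1 and Pik3c2a) and 5 of 14 falls (Akt2, Inpp4a, Pik3r1, Pik3r2 and Sgk1). The rest are 2 of 6 genes not called (Phlpp1 and Pik3cd). Genes with several windows had more chances of a match, and no share by gene was formed over all genes. The FOXO motif TGTTTAC, on either strand, was in 3 windows (5.88% against 3.65% of all windows), 1 of Akt1 and 2 overlapping windows of Mapkap1. The motifs were thus found in genes of either direction, and a match describes letters in a window and not a bound site.

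All 4 adaptor genes rose. IRS proteins carry the signal of the insulin and IGF1 receptors to PI3K, and GAB proteins that of other receptor tyrosine kinases. Irs2 (chromosome 8, 10984681 to 11008458, minus strand) was at 88.7, 88.6 and 92.6 CPM in the controls and 144, 141 and 137 CPM in the knockouts, a 1.56-fold rise without overlap (log2 change 0.64 ± 0.03, adjusted p = 1.79e-13). Gab1 (chromosome 8, 80764438 to 80880519, minus strand) was at 75.6, 71.2 and 76.7 CPM and then 115, 114 and 109 CPM (log2 change 0.60 ± 0.04, adjusted p = 2.59e-12). Per kilobase Irs2 and Gab1 were nearly level with each other in the controls, at 14.2 ± 0.362 and 14.7 ± 0.577, and again in the knockouts, at 22.2 ± 0.563 and 22.2 ± 0.580. The other two were much scarcer per kilobase. Gab2 rose from 12.2 to 12.5 CPM to 17.0 to 18.2 CPM (log2 change 0.50 ± 0.06, adjusted p = 5.29e-07), and Irs1 from 4.28 to 5.04 CPM to 5.88 to 6.89 CPM (log2 change 0.49 ± 0.11, adjusted p = 0.000491). Gm9747, annotated on the opposite strand over 30.9% of the exon length of Irs1, had 0 counts in every library.

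The 2 AKT genes listed went in opposite directions by similar amounts. Akt1 (chromosome 12, 112653821 to 112674884, minus strand) was at 346, 349 and 328 CPM in the controls and 441, 444 and 436 CPM in the knockouts, 1.29-fold higher (log2 change 0.37 ± 0.03, adjusted p = 5.50e-10). Akt2, the form best known for its role in insulin-stimulated glucose uptake (chromosome 7, 27591552 to 27640826, plus strand), was at 85.8, 85.6 and 88.8 CPM and then 68.2, 68.1 and 69.4 CPM, 1.27-fold lower (log2 change -0.34 ± 0.03, adjusted p = 1.47e-08). Neither gene's groups overlapped, and neither change reached 1.5-fold.

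Akt1 was the most abundant of the 33 tested components per kilobase in the controls (83.2 ± 2.82, against 40.4 ± 1.75 for the next, Inppl1). Its ratio to Akt2 per kilobase was 7.02, 7.10 and 6.42 in the controls and 11.3, 11.3 and 10.9 in the knockouts. The summed level of Akt1 and Akt2 per kilobase was 95.4 ± 2.57 in the controls and 117 ± 0.850 in the knockouts. A processed pseudogene of Akt2 on chromosome 11 (Akt2-ps, 16514533 to 16515981) matches it over 1449 bases at 98.6% identity, and reads of the 2 genes may be exchanged. Akt2-ps had 45.3% as many counts as Akt2 over all libraries and fell likewise, from 39.9 ± 0.494 to 30.4 ± 1.64 CPM (log2 change -0.39 ± 0.05, adjusted p = 3.36e-07). With the counts of both added, the change was -0.35 ± 0.03 (adjusted p = 1.33e-09), close to that of Akt2 alone.

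**Figure D3:**
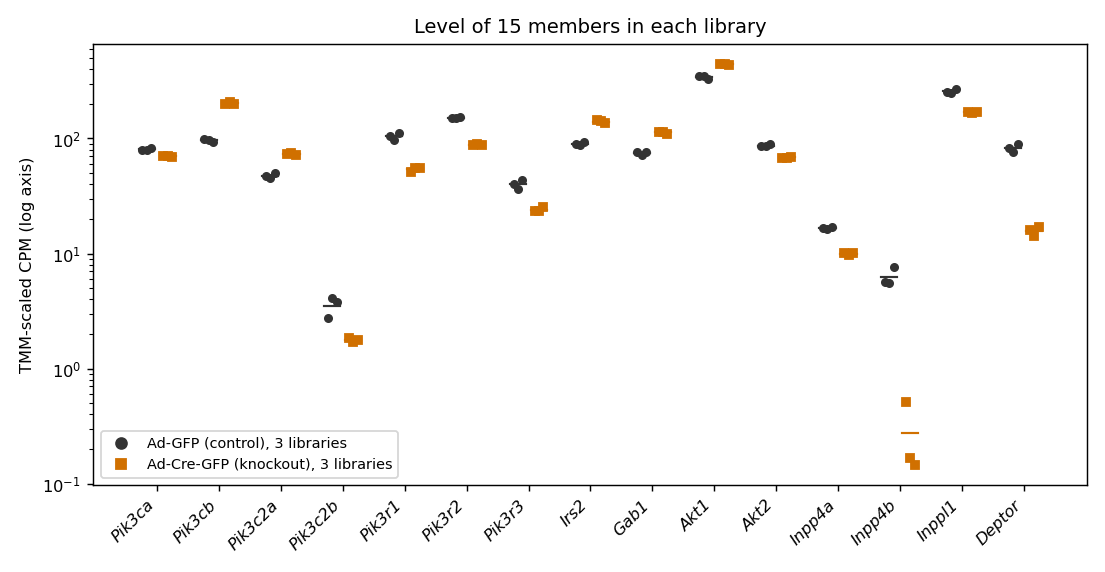
Level of 15 components in each library, in TMM-scaled CPM on a log axis, with controls as circles, knockouts as squares and the group mean as a line. Pik3cb, Pik3c2a, Irs2, Gab1 and Akt1 lie higher and the other 10 lower in all 3 knockout libraries, and Inpp4b drops from between 5.52 and 7.69 CPM to between 0.146 and 0.513 CPM.

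The kinases beside AKT moved less. Pdpk1, which encodes PDK1, the kinase that phosphorylates the activation loop of AKT and SGK, fell from 95.9 to 99.4 CPM to 87.4 to 91.4 CPM (log2 change -0.14 ± 0.03, adjusted p = 0.00110). Sgk1, a kinase of the same family as AKT that mTORC2 activates, fell from 86.2 to 96.0 CPM to 72.4 to 73.7 CPM (log2 change -0.31 ± 0.04, adjusted p = 2.67e-07). Sgk3, its relative on endosomes, was not called (log2 change 0.03, 95% interval -0.14 to 0.21). Gsk3b, a kinase that AKT inhibits, fell from 118 to 128 CPM to 102 to 104 CPM (log2 change -0.24 ± 0.03, adjusted p = 2.19e-06).

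All 3 tested lipid phosphatases of PI3K products fell. Inpp4b, which removes a phosphate from the PI3K product that remains after the first step of PIP3 breakdown (chromosome 8, 81342556 to 82127914, plus strand), had 125, 141 and 145 counts in the controls and 15, 5 and 4 in the knockouts. In CPM this was 5.70, 5.52 and 7.69 against 0.513, 0.167 and 0.146, 22.9-fold lower (log2 change -4.47 ± 0.27, adjusted p = 1.26e-10). The change was larger in size than that of 99.4% of all tested genes. Ad-Cre-GFP replicate 1 held most of the knockout counts, and without it the log2 change was -5.26 (adjusted p = 6.59e-14). The promoter of this gene is shown because it had the largest change, as the 250 bases before its RefSeq start with the same marking of the TEAD core and of the FOXO motif, neither of which it holds.
Inpp4b, chr8:81342312-81342561, plus strand: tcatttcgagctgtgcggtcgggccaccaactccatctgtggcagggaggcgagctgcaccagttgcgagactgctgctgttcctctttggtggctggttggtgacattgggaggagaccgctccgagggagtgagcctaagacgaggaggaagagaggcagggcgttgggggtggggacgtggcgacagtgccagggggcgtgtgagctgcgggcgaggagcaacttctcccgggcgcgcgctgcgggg

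Inpp4a, its paralog (chromosome 1, 37299865 to 37410736, plus strand), was at 16.7, 16.3 and 17.1 CPM in the controls and 10.1, 9.67 and 10.04 CPM in the knockouts. It fell to 59.5% of control (log2 change -0.75 ± 0.07, adjusted p = 2.18e-09). Per kilobase, Inpp4b was 21.3%, 21.2% and 26.4% of the sum of both paralogs in the controls. In the knockouts it was 3.89%, 1.36% and 1.14% (exact permutation p = 0.1, the smallest possible). This share was not planned, and it restates the unequal falls of the 2 genes, so its p adds no support. The paralog pair thus fell together, by different amounts, and the summed level went from 2.09 ± 0.125 to 0.977 ± 0.0335 per kilobase.

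Inppl1, which encodes SHIP2, an enzyme that converts PIP3 to the next phosphoinositide (chromosome 7, 101822632 to 101838229, minus strand), was at 255, 250 and 271 CPM in the controls and 170, 166 and 170 CPM in the knockouts. This was a fall to 65.2% of control (log2 change -0.62 ± 0.03, adjusted p = 3.03e-13) in the most abundant phosphatase of the list per kilobase. The antisense gene Gm10602 overlaps 18.8% of its exon length and had 0.426% as many counts. Inpp5d, the leukocyte form SHIP1, had 1, 2 and 0 counts in the controls and 6, 5 and 3 in the knockouts and was not tested. The ratio of its summed counts, knockout over control and scaled by depth, was 3.49 with a 95% exact binomial interval of 0.974 to 18.9, for counting error only. That interval includes 1, so no difference was detectable at this depth.

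The PHLPP genes encode protein phosphatases that dephosphorylate AKT itself. Phlpp1 was at 18.3 to 19.2 CPM in the controls and 16.5 to 17.8 CPM in the knockouts and was not called (log2 change -0.12, 95% interval -0.24 to 0.01, adjusted p = 0.0848). Phlpp2 rose slightly, from 31.7 to 34.8 CPM to 35.2 to 38.3 CPM (log2 change 0.15 ± 0.05, adjusted p = 0.0164). DESeq2 did not call it (adjusted p = 0.0660), nor was it called without Ad-GFP replicate 1 (0.0878), Ad-GFP replicate 2 (0.0562) or Ad-Cre-GFP replicate 2 (0.0945) or with all libraries thinned to 1 depth (0.0892), in a range of adjusted p from 0.00350 to 0.0945 over all settings.

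Among the mTOR complex genes only Deptor changed by 1.5-fold or more. Deptor, which encodes an inhibitory subunit of both mTOR complexes (chromosome 15, 55112317 to 55259271, plus strand), was at 82.0, 76.5 and 88.9 CPM in the controls and 16.04, 14.3 and 16.9 CPM in the knockouts. The knockout level was 19.1% of control (log2 change -2.39 ± 0.06, adjusted p = 3.31e-15), larger in size than the change of 96.7% of tested genes. The other mTORC1 inhibitor among these complex genes moved the other way. Akt1s1, which encodes PRAS40, a substrate of AKT, rose from 65.9 to 70.4 CPM to 77.8 to 81.6 CPM (log2 change 0.23 ± 0.04, adjusted p = 1.45e-05). Tbc1d17, on the opposite strand, overlaps 2.90% of its exon length and had 30.3% as many counts (1777 over the controls and 1667 over the knockouts).

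The core subunits changed little. Mtor, the kinase itself, rose from 57.3 to 59.7 CPM to 62.7 to 67.1 CPM (log2 change 0.14 ± 0.04, adjusted p = 0.00327). Rptor, for raptor, the subunit that defines mTORC1, was at 59.0 to 61.0 CPM and then 64.6 to 67.3 CPM (log2 change 0.14 ± 0.04, adjusted p = 0.00181). Rictor, the subunit that defines mTORC2, was at 60.3 to 66.9 CPM and then 52.9 to 56.4 CPM (log2 change -0.20 ± 0.04, adjusted p = 0.000473). The ratio of Rptor to Rictor per kilobase was thus 1.15 to 1.23 in the controls and 1.44 to 1.58 in the knockouts, while their sum stayed between 7.94 and 8.48 in every library. Mapkap1, for the mTORC2 subunit SIN1, was at 54.8 to 56.6 CPM and then 51.6 to 53.4 CPM, a difference near the limit of the test (log2 change -0.09 ± 0.04, adjusted p = 0.0397). Its call was lost under 10 of the 15 other settings, among them DESeq2 size factors (adjusted p = 0.0810) and the omission of any library except Ad-GFP replicate 2, in a range of adjusted p from 0.0215 to 0.242. Mlst8, shared by both complexes, was not called (log2 change -0.09, 95% interval -0.25 to 0.06). Bricd5, on the opposite strand over 22.5% of the exon length of Mlst8, had 0 counts in every library.

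The switch between AKT and mTORC1 showed no called change. Tsc1 and Tsc2 form the complex that AKT restrains, and Rheb is the GTPase that this complex holds in check. Tsc2 was at 60.2 to 62.3 CPM in the controls and 61.5 to 64.5 CPM in the knockouts (log2 change 0.03, 95% interval -0.05 to 0.11), and it shares 7.20% of its exon length with Pkd1 on the other strand. Pkd1 had 229% as many counts as Tsc2, 9678 over the controls and 12079 over the knockouts, so with an unstated strand setting the values of Tsc2 are uncertain. Rheb was at 88.2 to 97.1 CPM and 92.7 to 98.8 CPM (log2 change 0.04, 95% interval -0.04 to 0.12). Tsc1 was at 29.97 to 31.3 CPM and 32.2 to 33.5 CPM, apart by little (log2 change 0.10 ± 0.05, adjusted p = 0.0613). It passed the threshold in some settings, with adjusted p from 0.0383 without Ad-GFP replicate 3 to 0.188.

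Further genes of the pathway were followed in 5 lists drawn up by role. Of 17 tested genes among 24 other PI3K and AKT genes, 3 rose, 11 fell and 3 were not called, with a median log2 change of -0.42. The smallest adjusted p-values were those of Trib1, a pseudokinase (-1.06 ± 0.04, adjusted p = 1.70e-16), Inpp5j, another phosphoinositide phosphatase (-1.76 ± 0.07, adjusted p = 1.42e-15), and Igf1r, the IGF1 receptor, which rose (0.72 ± 0.03, adjusted p = 3.09e-14). Pik3cg, Pik3c2g and Sgk2 had 0 counts in every library.

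The 37 tested genes of amino acid and energy input to mTORC1, of 38, were even in direction, with 14 rises, 14 falls and a median of -0.06. Ddit4, which encodes REDD1, an inhibitor of mTORC1 in stress, fell from 309 ± 5.23 to 41.7 ± 1.55 CPM. Sesn1, a leucine sensor that restrains mTORC1, fell from 24.2 ± 1.83 to 8.62 ± 0.253 CPM. Prkab2, a subunit of the energy sensor AMPK, rose from 48.8 ± 1.29 to 86.7 ± 1.76 CPM. Of 15 tested genes of 17 in the list of mTOR partners and outputs, 7 rose and 4 fell, with a median of 0.12. Eif4g1, the scaffold of translation initiation, rose by 0.43 ± 0.03 and Larp1, which binds mRNAs of the translation machinery, by 0.37 ± 0.03. Prr5l, which encodes a partner of mTORC2, rose from 4 to 10 counts in a control to 70 to 93 counts in a knockout library, 8.20-fold by summed counts (log2 change 3.05 ± 0.25, adjusted p = 3.42e-10).

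The FOXO transcription factors are phosphorylated by AKT, after which most of them leave the nucleus. Of 11 FOXO factors and other AKT substrates 8 fell, 1 rose and 2 were not called, with a median of -0.34. All 4 FOXO genes were among the falls. Foxo6 fell from 121.8 ± 3.11 to 54.1 ± 1.74 CPM, and Foxo3 (-0.51 ± 0.04), Foxo4 (-0.76 ± 0.09) and Foxo1 (-0.55 ± 0.07) by less. Acly, an enzyme of fatty acid synthesis, fell by 0.34 on the log2 scale. Of 19 tested genes of 21 known FOXO targets 14 fell, 4 rose and Sod2 was not called, with a median of -0.62. The list shares Irs2 and Rictor with the 34 components and 4 further genes with the lists above. Cited2, a transcriptional coregulator, rose (1.12 ± 0.04), while Ccng2, the cyclin G2 gene (-2.27 ± 0.08), and Bcl6, a transcriptional repressor (-1.32 ± 0.05), fell. These counts stand beside 34% of all tested genes called higher and 35.8% called lower, and no list was tested against other genes.

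**Figure D4:**
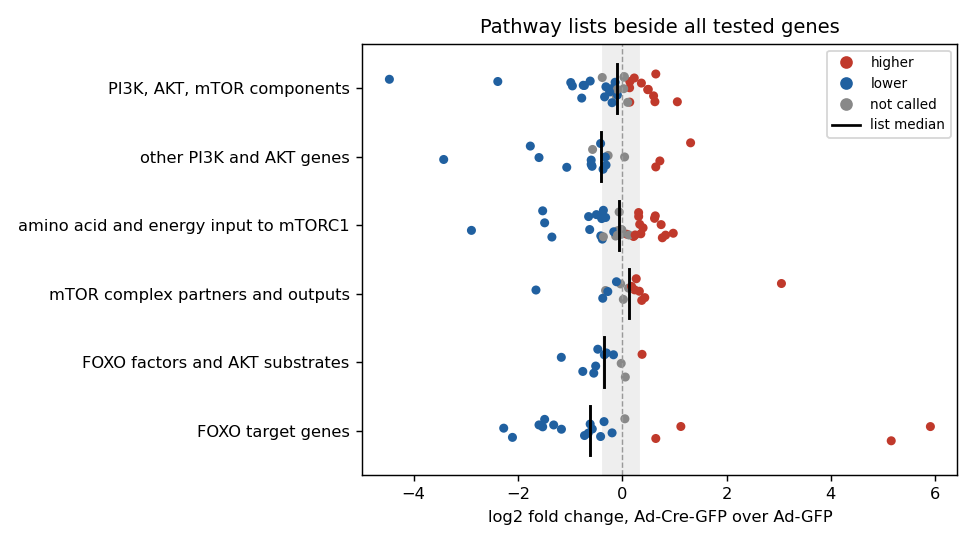
Log2 fold change (knockout over control) of each tested gene of the 34 components and of the 5 further pathway lists, coloured by call, with the list median as a black line and random vertical spread; the grey band is the middle 50% of all tested genes (-0.36 to 0.33) and the dashed line their median. The medians of FOXO targets (-0.62) and other PI3K and AKT genes (-0.42) lie below the band, and those of the other lists inside it.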

How the data were processed

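Poly(A)-enriched RNA of 3 Ad-GFP and 3 Ad-Cre-GFP libraries was sequenced, per the labels' protocols. The authors deposited whole-number read counts per Ensembl gene, 1 column per BAM file, per the file headers. Named in the submitters' processing notes are the build GRCm38 and the tools kallisto 0.46.2 and sleuth 0.30.1. What aligned and counted the reads, and with which strand setting and annotation, is not given in the sources used here. Overlapping, antisense or copied genes therefore have uncertain counts.

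Symbols, positions and exon lengths came from GENCODE M21 (GRCm38) by gene ID; 48058 of 48440 IDs matched. Genes passing filterByExpr (14811) were TMM-scaled and tested with edgeR 4.0.16 (quasi-likelihood, robust, no replicate block, R 4.3.3), with Benjamini-Hochberg adjustment over all of them. SE is the log2 change divided by the square root of F. CPM are TMM-scaled. Near-identical transcripts were sought with minimap2 2.31 (at least 200 bases at 90% identity). The edgeR script was tested on simulated data. Replicate pairs differed by a chi-square per gene of 2.04 to 4.27, the largest between Ad-GFP replicate 2 and Ad-GFP replicate 3. All libraries were kept.

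All 34 components are named; every library's value is given for Akt1, Akt2, Pik3ca and called changes of at least 1.5-fold, and up to 3 called genes of each pathway list by smallest adjusted p. Other genes named were chosen after their values were seen. The components and lists were chosen with earlier results of these data known. Alternatives used DESeq2 1.42.0, limma-voom (limma 3.58.1), other scalings and filters, no robust estimation, a replicate block and the omission of each library. Thinning, the sum with Akt2-ps and settings of the catalytic to regulatory ratio were chosen after seeing the data. The share of Inpp4b and the ratio of Rptor to Rictor were not planned either.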

Additional observations from a re-analysis of the deposited data

How the results depend on the processing

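Over 15 other settings for each of the 33 tested components, and the sum with Akt2-ps for Akt2, no called change reversed, and 29 components kept their side of the threshold throughout; the exceptions were Pik3cd, Phlpp2, Mapkap1 and Tsc1, whose values are given above. Counts of rises ran from 10 to 12, of falls from 14 to 15 and of called changes of at least 1.5-fold stayed at 12 when all libraries were used. Leaving out 1 library at a time gave 10 to 12 rises, 14 to 16 falls, 11 to 12 changes of at least 1.5-fold and 9932 to 10124 calls over all genes. Without division by length, the change in share was -19.1 percentage points for Pik3ca (-17.5 per length), 19.8 for Pik3cb (18.5) and -2.96 for Pik3r1 (-1.95). The ratio of catalytic to regulatory sums differed 2.71-fold without division by length and 2.81-fold by longest transcript, and 2.72-fold to 2.79-fold without single libraries. With a replicate block 11 rose and 15 fell, 12 of them by at least 1.5-fold, with 10478 calls over all genes. The labels number replicates alike in both groups, but same-numbered libraries hardly deviated together (correlations 0.0488, 0.0510 and 0.00502), and replicate 3 correlated better with another number (0.0165). Depth limits Inpp5d, Pik3cd and the knockout level of Inpp4b.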

Other observations

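Among known FOXO target genes, the 2 largest changes were rises against the direction of the list; they were picked out after their values were seen. Klf15, a Krüppel-like factor, had 0 to 1 counts in a control and 55 to 66 counts in a knockout library, 68.1-fold by summed counts (95% exact binomial interval 18.6 to 566). This and the intervals that follow cover counting error only, and replicate libraries differed by more than that. Pdk4, a kinase that holds back pyruvate dehydrogenase, had 0 to 3 counts in a control and 57 to 75 counts in a knockout library, 37.6-fold by summed counts (interval 14.5 to 139). Fbxo32, a ubiquitin ligase gene, went the other way, from 9.69 ± 0.519 to 2.23 ± 0.426 CPM (log2 change -2.11 ± 0.12, adjusted p = 1.46e-12).

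Some paralogs of the inputs to mTORC1 and AKT also differed in direction, and others moved the same way. Sesn1 and Sesn3 fell (log2 changes -1.49 ± 0.07 and -1.53 ± 0.05) and Sesn2 rose (0.40 ± 0.05). Castor2 fell (-1.35 ± 0.08) and Castor1, which is scarce, rose (0.75 ± 0.18). Rragd, a RAG GTPase gene that the filter left untested, had 0 to 1 counts in a control and 11 to 13 counts in a knockout library, 13.5-fold by summed counts (interval 3.47 to 115), and its relative Rragc rose from 79.7 ± 0.0867 to 124 ± 3.28 CPM. Trib2 had 86 to 111 counts in a control and 8 to 20 counts in a knockout library, and Trib1 fell 2.09-fold. Pik3ip1, an inhibitor of class I PI3K at the membrane, fell from 11.8 ± 1.09 to 3.91 ± 0.202 CPM, and Pik3ap1, an adaptor known from B cells, rose from 3.54 ± 0.515 to 8.69 ± 0.373 CPM.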
